A study of Mus musculus with 31 samples.

Results

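Fatty acid oxidation breaks fatty acids down to acetyl-CoA, and the 38 genes described here carry it out or regulate it in the liver. They were chosen by symbol, as a list of enzymes, carriers and regulators, from the 25239 symbols of the count table, and all 38 were found there. The list runs from activation and the carnitine shuttle through the mitochondrial and peroxisomal cycles to thioesterases, omega-hydroxylases, a ketone body enzyme and regulators. The list was drawn up by function, with earlier results of these data known.

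The liver cells came from C57BL/6J mice of both sexes fed standard chow or the FPC diet (fructose, palmitate and cholesterol, labelled NASH) for 16 weeks. Hepatocytes were pelleted at low speed from the digested liver, and hepatic stellate cells were taken from the rest on a Nycodenz density layer. There were 8 groups with 4 libraries each, apart from the stellate cells of females on chow, where replicates 1, 2 and 4 made 3. The labels number the libraries and name no mouse, so p-values measure the spread between these libraries, which may be technical in part. No group carried a genetic change, and the design compares diets within each sex and sexes within each diet.

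In mitochondrial beta-oxidation a fatty acid is joined to coenzyme A, passed over the inner membrane as a carnitine ester and then shortened by a repeating cycle of dehydrogenation, hydration, a further dehydrogenation and thiolysis. Peroxisomes run a parallel cycle with their own enzymes, mainly on very long and branched chains. In hepatocytes the nuclear receptor PPARA, bound to DNA with its partner RXR, turns on many genes of both cycles, and the acetyl-CoA made feeds ketone body synthesis.

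Library totals ran from 3442266 to 30393415 counts in the hepatocyte libraries and from 9440494 to 40258392 counts in the stellate cell libraries. One library stood apart: in hepatocytes of FPC-fed male 4, 84.3% of the counts fell on Rn45s, a ribosomal RNA precursor, and 10.2% on Lars2, which left 15966 counts for the 38 members. The averaged diet effects of the members are given without it after those of all libraries. The labels were checked against marker genes, as the mean of log2(CPM + 1) over a list, where CPM is the count relative to library size after TMM scaling. In the hepatocyte libraries 16 hepatocyte markers lay between 7.61 and 11.44, beside 6.42 to 9.42 for 12 Kupffer cell markers and 6.61 to 9.06 for 10 endothelial markers. In the stellate cell libraries 10 markers of quiescent stellate cells lay between 2.97 and 5.33, below the Kupffer cell markers at 7.01 to 9.75 and the endothelial markers at 6.67 to 8.84. No quiescent stellate marker was at 0 in any library, but these preparations carried more RNA of macrophage and endothelial genes than of stellate genes by this measure. The quiescent stellate markers were at 3.77 to 6.38 in the hepatocyte libraries, and markers of activated stellate cells were at 2.46 to 5.34 there and at 1.92 to 4.6 in the stellate cell libraries. The cell types were scaled separately, but neither list was higher in the libraries labelled stellate cells, so that name is used here only as the label gives it.

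The binding site of PPARA with RXR is a direct repeat of the half-site AGGTCA with 1 base between the copies, AGGTCANAGGTCA. RefSeq (GRCm38.p6) gave a window from 250 bases before to 50 bases after the gene start for 32 of the 38 members. Acaa2, Hsd17b4, Decr1, Cyp4a10, Cyp4a14 and Vnn1 had no window and were not searched. A copy with at most 2 mismatches over the 12 fixed bases, on either strand, lay in the window of 4 of the 32 (12.5%), beside 4.4% of 27025 genes. The 3 copies that lay before the start are shown because they place the motif in the regions before Echs1, which fell on the FPC diet, and before Etfa and Acot4, which did not pass the test. Each line gives the 250 bases before the gene start on the gene's strand, 5′ to 3′, with the copy in capitals. The regions are chr7:140116422-140116671 on the minus strand for Echs1, chr9:55512244-55512493 on the minus strand for Etfa and chr12:84038129-84038378 on the plus strand for Acot4.
Echs1: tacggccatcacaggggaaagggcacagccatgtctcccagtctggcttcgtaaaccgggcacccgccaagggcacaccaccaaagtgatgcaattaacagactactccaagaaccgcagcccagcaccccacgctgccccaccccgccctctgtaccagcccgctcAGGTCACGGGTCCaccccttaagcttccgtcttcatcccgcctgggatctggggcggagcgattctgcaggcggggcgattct
Etfa: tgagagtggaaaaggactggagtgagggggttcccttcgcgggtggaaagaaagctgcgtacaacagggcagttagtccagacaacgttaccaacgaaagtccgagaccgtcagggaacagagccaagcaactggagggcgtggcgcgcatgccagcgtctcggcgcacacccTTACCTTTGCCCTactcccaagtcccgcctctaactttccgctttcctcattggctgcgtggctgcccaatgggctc
Acot4: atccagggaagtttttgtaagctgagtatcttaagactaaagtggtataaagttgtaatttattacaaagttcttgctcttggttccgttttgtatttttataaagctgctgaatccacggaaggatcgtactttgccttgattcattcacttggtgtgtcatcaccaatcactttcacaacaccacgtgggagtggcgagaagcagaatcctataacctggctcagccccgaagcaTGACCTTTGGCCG
In Echs1 the copy began 83 bases before the gene start and read along the gene, in Etfa it began 77 bases before and in Acot4 13 bases before, both on the opposite strand. The copy of Slc25a20, AGGTGAAAGGTCG, lay on the gene's own strand after the start. A letter match is a description of the sequence and was not set against binding data.

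On chow, the hepatocyte libraries held the members at very different levels. CPM per kb of the longest annotated coding transcript allows a rough comparison of genes. Coverage along the transcripts was not examined. Over the 8 chow libraries the median was 594 CPM per kb for the mitochondrial thiolase Acaa2, 509 for the peroxisomal thiolase Acaa1b and 385 for Etfb, a subunit of the flavoprotein that takes electrons from the acyl-CoA dehydrogenases. At the other end were Fgf21 at 0.36 CPM per kb and Ppargc1a, which codes for a coactivator of PPARA, at 0.209. The shuttle genes Cpt1a and Cpt2 lay close together, at 39 and 35.8 CPM per kb, with ranges over the libraries of 30.8 to 56.6 and 17.6 to 73.1 that overlap. Acaa1a and Acaa1b, Acot1 to Acot4, Cyp4a10 and Cyp4a14, and Eci2 and Eci3 are near copies of each other. Their counts are uncertain where reads could not be assigned to a single copy, since the treatment of such reads is not given in the sources used here.

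In hepatocyte preparations the FPC diet went with lower levels of some fatty acid oxidation genes, mitochondrial and peroxisomal. Fgf21 was higher at low counts, and it passed the filter on low counts through FPC libraries. Its call was lost in 5 of 26 alternative fits. Averaged over the sexes, 6 of the 38 members fell and 1 rose by edgeR's quasi-likelihood test with Benjamini-Hochberg adjustment over 14430 genes. By the same test 12.1% of all genes were called, 6.65% lower and 5.47% higher. Of the members, 32 had a negative log2 fold change, and the median over all 38 was -0.54, beside 0.09 over all genes tested. The lower calls were Cpt2 of the shuttle, Echs1, Hadh and Acaa2 of the cycle, Etfb of electron transfer and Hsd17b4 of the peroxisome. With 16 libraries in a bulk measure, fewer hepatocytes in a preparation and less RNA of these genes per hepatocyte cannot be told apart. Hepatocyte markers moved with the diet in the same libraries: 11 of the 16 fell, with a median log2 fold change of -1.85. Their level was 9.05 to 10.57 in chow-fed and 7.69 to 8.98 in FPC-fed females, and 10.47 to 11.44 in chow-fed and 7.61 to 10.22 in FPC-fed males, and at most 1 of the 16 was at 0 in any library. Of other lists, 8 of 12 Kupffer cell and 7 of 10 endothelial markers fell, and 5 of 10 markers of lipid-associated or monocyte-derived macrophages and 3 of 10 of activated stellate cells rose. The level of 8 neutrophil markers was 7.46, 6.9, 6.42 and 4.06 in FPC-fed females, against 4.07 to 5.35 in chow-fed females. In males it was 3.63 to 4.12 on chow and 2.05 to 4.33 on FPC.

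**Figure D1:**
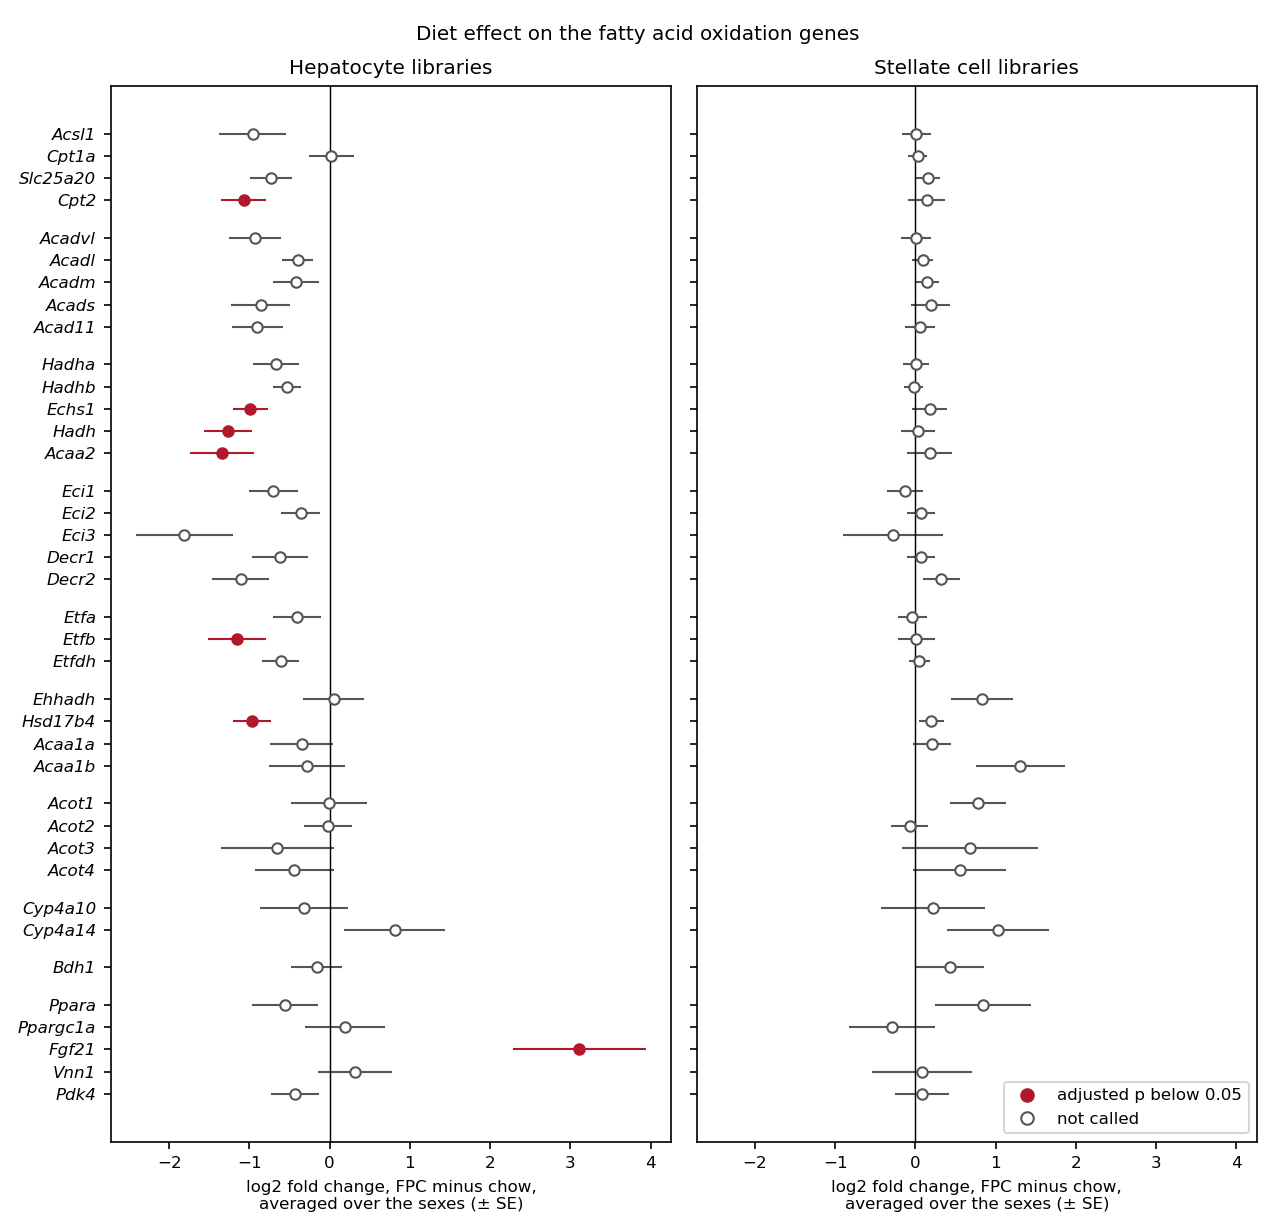
Log2 fold change of each member, FPC minus chow averaged over the sexes, with its standard error, in hepatocyte (left) and stellate cell (right) libraries. Genes are grouped by step from the carnitine shuttle at the top to the regulators at the bottom, and filled points passed the test. In hepatocytes 7 points are filled and 32 of 38 lie left of 0, while in stellate cells none is filled.

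The activation and shuttle genes did not move alike. Acsl1 joins long-chain fatty acids to coenzyme A, Cpt1a makes the acylcarnitine on the outer membrane, Slc25a20 carries it over the inner membrane and Cpt2 turns it back to acyl-CoA. Cpt2 (chr4:107903981-107923610) was at 96.8, 41.7, 79.2 and 76 CPM in chow-fed females and 26.1, 43, 30.8 and 47.7 CPM in FPC-fed females, and at 86, 173, 104 and 83.8 CPM in chow-fed males and 28.5, 61.6, 25.8 and 89.3 CPM in FPC-fed males. In each sex the groups overlapped, through chow-fed female 2 and through FPC-fed male 4. Chow-fed female 2 had the lowest hepatocyte marker level of the chow libraries, 9.05. Its Kupffer cell marker level, 9.42, was the highest of all hepatocyte libraries. For Cpt2 the averaged diet effect follows. The log2 fold change was -1.07 ± 0.28 (SE), 2.1-fold lower, with an adjusted p of 0.0262 by edgeR's quasi-likelihood test. Cpt1a, the step that malonyl-CoA inhibits, was at 177, 142, 133 and 160 CPM in chow-fed females and 144, 167, 116 and 95.7 CPM in FPC-fed females, and at 177, 245, 160 and 198 CPM in chow-fed males and 123, 173, 119 and 533 CPM in FPC-fed males. The groups overlapped in both sexes, and FPC-fed male 4 alone was above 245 CPM. Its log2 fold change was 0.02 ± 0.28, the value nearest to 0 among the 4, and it did not pass the test with an adjusted p of 0.958 in edgeR. Without male 4 it was -0.33 ± 0.18. Acsl1 had -0.96 ± 0.42 and Slc25a20 -0.73 ± 0.26, with adjusted p of 0.121 and 0.0668 in edgeR. In females all 4 Acsl1 libraries on FPC (63.2 to 73.5 CPM) lay under all 4 on chow (80.8 to 213 CPM).

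The acyl-CoA dehydrogenases start each turn of the cycle and differ in the chain length they take. All 5 had negative log2 fold changes, from -0.93 ± 0.32 for the very long chain enzyme Acadvl to -0.40 ± 0.19 for the long chain enzyme Acadl, and none passed the test. Acadvl was at 404, 148, 258 and 215 CPM in chow-fed females and 109, 172, 95 and 243 CPM in FPC-fed females, and at 259, 535, 333 and 263 CPM in chow-fed males and 92.1, 152, 85.1 and 307 CPM in FPC-fed males. The groups overlapped in both sexes, with FPC-fed females 2 and 4 and male 4 inside the chow range, and the adjusted p in edgeR was 0.0599. The medium chain enzyme Acadm had -0.42 ± 0.29, the short chain enzyme Acads -0.86 ± 0.37 and Acad11, a further family member that takes long chains, -0.90 ± 0.32. Acad11 was the member of this step whose female groups did not overlap, at 76.6 to 158 CPM on chow and 43 to 71 CPM on FPC.

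The hydratase, hydroxyacyl-CoA dehydrogenase and thiolase step held 3 of the 6 lower calls and had the lowest median log2 fold change of the 10 groups of members, -0.99. Echs1 (chr7:140105710-140116476) codes for the short chain enoyl-CoA hydratase, which adds water to the double bond. It was at 191, 96.4, 150 and 179 CPM in chow-fed females and 61.2, 102, 72.7 and 118 CPM in FPC-fed females, and at 173, 267, 202 and 151 CPM in chow-fed males and 65, 96.8, 66 and 127 CPM in FPC-fed males. In males all 4 FPC libraries lay under all 4 chow libraries, and in females chow-fed 2 lay among the FPC libraries. FPC minus chow gave a log2 fold change of -0.99 ± 0.22, 1.98-fold lower, with an adjusted p of 0.0148 in edgeR.

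Hadh (chr3:131233419-131272101), which codes for the hydroxyacyl-CoA dehydrogenase of short and medium chains, was at 310, 116, 273 and 220 CPM in chow-fed females and 58.1, 83.6, 79.5 and 146 CPM in FPC-fed females, and at 219, 372, 276 and 147 CPM in chow-fed males and 66.8, 114, 68.9 and 189 CPM in FPC-fed males. The lowest chow library of each sex lay inside the FPC range, and all others on chow lay above it. Its fitted log2 fold change was -1.27 ± 0.30, 2.41-fold lower, with an adjusted p of 0.0165 in edgeR. Acaa2, the thiolase that cuts off acetyl-CoA, was at 1170, 284, 745 and 663 CPM in chow-fed females and 193, 546, 172 and 674 CPM in FPC-fed females, and at 778, 1890, 1110 and 1020 CPM in chow-fed males and 161, 366, 163 and 676 CPM in FPC-fed males. Males did not overlap, while in females FPC-fed 2 and 4 lay inside the chow range. The log2 fold change was -1.34 ± 0.40, 2.52-fold lower, with an adjusted p of 0.0408 in edgeR. Hadha and Hadhb code for the alpha and beta subunits of the trifunctional protein, which performs the last steps on long chains. They lie head to head on chromosome 5, with gene starts at 30154980 and 30155253 in RefSeq. Neither passed the test, at -0.67 ± 0.29 and -0.53 ± 0.17, with adjusted p of 0.113 and 0.0541 in edgeR. In females the Hadhb groups did not overlap, at 120 to 152 CPM on chow and 87.9 to 107 CPM on FPC.

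**Figure D2:**
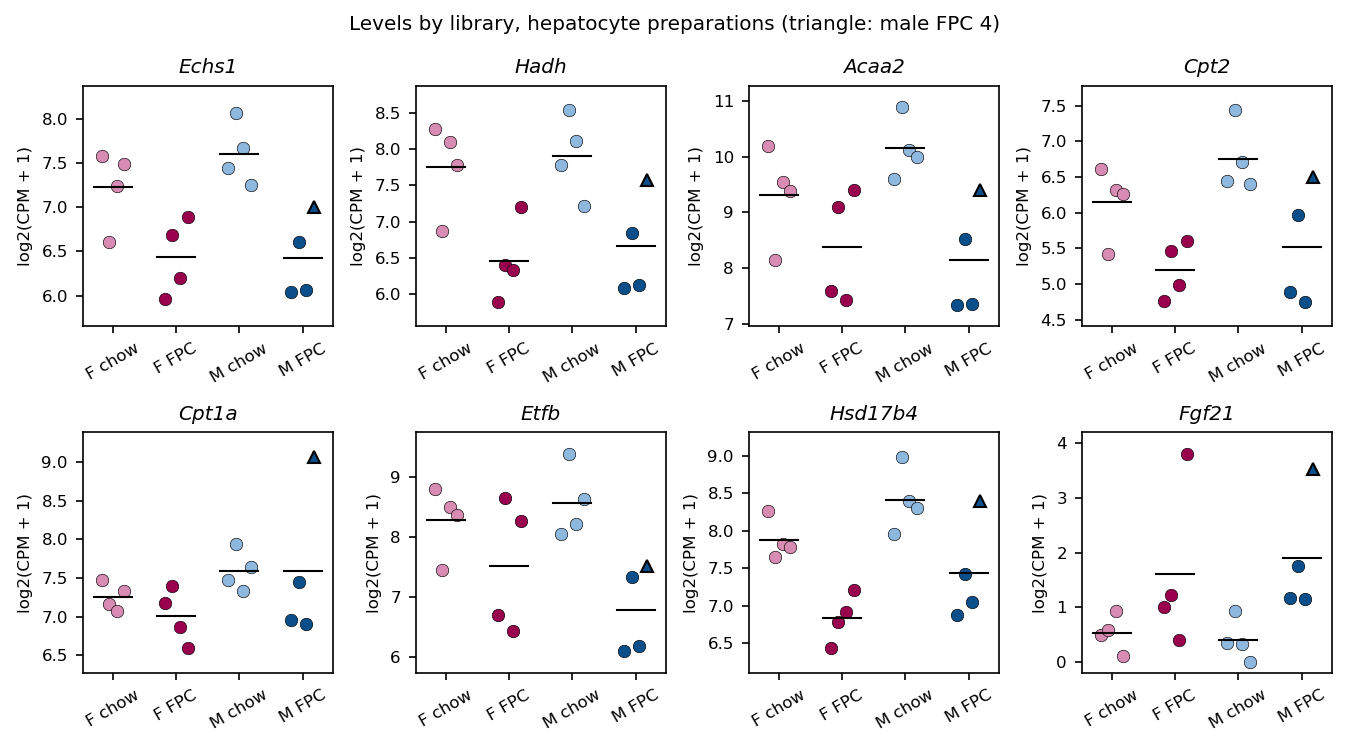
Level of 8 members in each hepatocyte library, as log2(CPM + 1) on the vertical axis, by sex (F, M) and diet. Points are libraries, lines are group means and the triangle is FPC-fed male 4. That library is the highest FPC male for all 8 genes.

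Electron transfer followed the cycle in part. Etfb (chr7:43444083-43457800) was at 444, 174, 360 and 328 CPM in chow-fed females and 103, 399, 85.7 and 305 CPM in FPC-fed females, and at 263, 663, 296 and 396 CPM in chow-fed males and 67.5, 159, 71.2 and 182 CPM in FPC-fed males. Males did not overlap, and in females FPC-fed 2 and 4 were as high as chow libraries. FPC minus chow gave a log2 fold change of -1.15 ± 0.36, 2.23-fold lower, with an adjusted p of 0.046 in edgeR. Etfa, the other subunit of the same flavoprotein, had -0.41 ± 0.30, and Etfdh, which hands the electrons on to ubiquinone, -0.61 ± 0.23. Neither was called.

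The auxiliary enzymes bring the double bonds of unsaturated fatty acids into the position the cycle needs. All 5 had negative values and none was called in the average over the sexes. Decr2, the peroxisomal dienoyl-CoA reductase, was at 175, 92, 161 and 122 CPM in chow-fed females and 30.9, 35.6, 57.7 and 99 CPM in FPC-fed females, and at 113, 268, 189 and 80.6 CPM in chow-fed males and 39.9, 91.8, 41.4 and 174 CPM in FPC-fed males. The groups overlapped in both sexes, and FPC-fed female 4 and male 4 were the highest on that diet. Its fitted log2 fold change was -1.11 ± 0.36, with an adjusted p of 0.0502 in edgeR, which did not pass the 0.05 threshold. It passed in 8 of 26 alternative fits, among them that with the replicate number as a block, at -1.28 ± 0.37 with an adjusted p of 0.0443 in edgeR. Its mitochondrial counterpart Decr1 had -0.62 ± 0.35, and the isomerases Eci1 and Eci2 had -0.70 ± 0.31 and -0.36 ± 0.24. Eci3 had -1.81 ± 0.60 with an adjusted p of 0.0559 and is described with the sexes.

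Of the 4 peroxisomal enzymes, Hsd17b4 was called, and Ehhadh, Acaa1a and Acaa1b were not. Hsd17b4 codes for the D-bifunctional protein, which hydrates and dehydrogenates very long and branched chains. It was at 307, 200, 225 and 219 CPM in chow-fed females and 85.6, 109, 120 and 147 CPM in FPC-fed females, and at 249, 506, 337 and 316 CPM in chow-fed males and 117, 171, 132 and 338 CPM in FPC-fed males. Females did not overlap, and in males FPC-fed 4 lay inside the chow range. The log2 fold change was -0.97 ± 0.24, 1.96-fold lower, with an adjusted p of 0.0219 in edgeR. Ehhadh, the L-bifunctional protein and a well-known PPARA target, had 0.05 ± 0.38, and the thiolases Acaa1a and Acaa1b had -0.35 ± 0.39 and -0.28 ± 0.47, with adjusted p from 0.536 to 0.93 in edgeR. For both thiolases FPC-fed male 4 stood against the other FPC-fed males: Acaa1b was at 905, 2090, 912 and 803 CPM in chow-fed and 257, 558, 327 and 1950 CPM in FPC-fed males, and Acaa1a at 329, 734, 380 and 393 and 114, 227, 141 and 630 CPM. The diets overlapped in males for both genes through male 4 alone, and the share of all genes with this pattern was not computed. Without male 4 the log2 fold changes were -0.34 ± 0.32 for Ehhadh, -0.72 ± 0.34 for Acaa1a and -0.76 ± 0.41 for Acaa1b, none of them called.

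The peroxisomal thiolases can be set against Acaa2 inside each library, where library scaling cancels. The ratio of Acaa1b to Acaa2 counts was 0.767 to 1.1 in chow-fed females and 1.05 to 1.96 in FPC-fed females. In males it was 0.785 to 1.16 on chow and 1.53 to 2.88 on FPC. The ratio of Acaa1a to Acaa2 ran from 0.32 to 0.505 on chow and from 0.606 to 0.827 on FPC in females, and from 0.342 to 0.422 and from 0.621 to 0.932 in males. Relative to Acaa2, both peroxisomal thiolases were higher on FPC, with 1 overlap among the 4 comparisons, that of Acaa1b in females. Acaa2 was itself called lower on FPC, so a higher ratio does not show a rise of the peroxisomal thiolases. Ratios to Hadhb, a subunit of the trifunctional protein of long chains, were not computed. The 4 comparisons are not separate, since they share Acaa2 and the 2 peroxisomal thiolases are near copies. Cell content does not cancel in a ratio, and its part was not tested. In stellate cell libraries the ratio of Acaa1b to Acaa2 was 0.337 to 0.607 on chow and 0.266 to 2.02 on FPC in females. In males it was 0.385 to 0.715 on chow and 0.651 to 1.38 on FPC. The ratio of Acaa1a to Acaa2 was 0.948 to 1.26 and 0.812 to 1.28 in females, and 0.894 to 1.58 and 1.03 to 1.35 in males. The diets overlapped in each of these stellate comparisons. The share of all gene pairs without overlap was not computed. The ratio of Ehhadh to Hadha overlapped in females (0.388 to 0.884 on chow and 0.291 to 1.29 on FPC) and did not in males (0.344 to 0.649 and 0.653 to 1.38). The ratios of Hsd17b4 to Hadha and of Decr2 to Decr1 overlapped between the diets in both sexes. These 5 pairs were chosen after the values were seen and carry no test.

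The thioesterases, which release free fatty acid and coenzyme A from acyl-CoA, showed no call. Acot1, of the cytosol, had -0.01 ± 0.47, Acot2, of the mitochondria, -0.02 ± 0.30, and the peroxisomal Acot3 and Acot4 -0.65 ± 0.70 and -0.44 ± 0.49. The omega-hydroxylases oxidise the far end of the chain. Cyp4a10 had -0.32 ± 0.55. Cyp4a14 was at 286, 41.5, 156 and 156 CPM in chow-fed females and 107, 112, 49.8 and 297 CPM in FPC-fed females, and at 115, 31.1, 24.4 and 11.6 CPM in chow-fed males and 41, 61.3, 26 and 506 CPM in FPC-fed males. The diets overlapped in both sexes, and FPC-fed male 4 was the highest of all 16 libraries. Its log2 fold change was 0.81 ± 0.63 with an adjusted p of 0.359 in edgeR, and -0.10 ± 0.49 without that library. Bdh1, which converts acetoacetate to beta-hydroxybutyrate, was at 101, 64.7, 73.7 and 115 CPM in chow-fed females and 37, 68.1, 78.4 and 124 CPM in FPC-fed females, and at 101, 152, 147 and 84.4 CPM in chow-fed males and 52, 92, 62 and 247 CPM in FPC-fed males. The diets overlapped in both sexes, with a log2 fold change of -0.16 ± 0.32.

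Among regulators and further PPARA targets the 1 call was Fgf21, a hormone that hepatocytes secrete in fasting and stress. Fgf21 (chr7:45613886-45615490) was at 0.412, 0.497, 0.906 and 0.0898 CPM in chow-fed females and 1.01, 1.33, 0.333 and 12.9 CPM in FPC-fed females, and at 0.273, 0.915, 0.255 and 0 CPM in chow-fed males and 1.26, 2.38, 1.23 and 10.5 CPM in FPC-fed males. Its counts were low, with 28 reads summed over the 4 libraries of chow-fed females and 11 over those of chow-fed males, against 195 and 98 on FPC. Fgf21 passed the filter on low counts through FPC libraries, so the filter and the call rest on the diet where Fgf21 was high. Males did not overlap, females did, and 1 library of each sex, FPC-fed 4, lay far above the rest. FPC minus chow gave a log2 fold change of 3.11 ± 0.83, 8.66-fold higher, with an adjusted p of 0.0263 in edgeR. Without FPC-fed female 4 it was 2.07 ± 0.67 with an adjusted p of 0.0501 in edgeR, and without chow-fed female 1 or 4 the adjusted p was 0.0587 or 0.0526. With the replicate number as a block it was 2.26 ± 0.81 with an adjusted p of 0.0828 in edgeR.

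Ppara itself was at 84.2, 47, 56.8 and 109 CPM in chow-fed females and 23.6, 29.2, 49.6 and 44.3 CPM in FPC-fed females, and at 69, 180, 133 and 89.1 CPM in chow-fed males and 28.6, 68.8, 45.1 and 302 CPM in FPC-fed males. The diets overlapped in both sexes, and FPC-fed male 4 had the highest level. Its log2 fold change was -0.56 ± 0.41 with an adjusted p of 0.33 in edgeR. Ppargc1a had 0.19 ± 0.50, Vnn1, a pantetheinase and PPARA target, 0.32 ± 0.46, and Pdk4, a kinase that restrains pyruvate oxidation, -0.43 ± 0.30. None of the 3 was called.

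The number of members called depended on FPC-fed male 4. In that library the mean level of the members was 7.09, against 5.12 to 5.71 in the other FPC-fed males and 5.96 to 6.83 in chow-fed males, and its hepatocyte marker level was 10.22. Without it, 22 members fell and 1 rose in the average over the sexes, where 22.4% of all genes were called, 11.9% lower, and the median of the members was -0.81. The members called with all libraries then had -1.24 for Cpt2, -1.07 for Echs1, -1.44 for Hadh, -1.59 for Acaa2, -1.26 for Etfb, -1.16 for Hsd17b4 and 2.61 for Fgf21. Of the mitochondrial steps the calls added were -1.66 for Acsl1, -0.84 for Slc25a20, -1.17 for Acadvl, -0.68 for Acadm, -1.09 for Acads, -1.28 for Acad11, -0.84 for Hadha, -0.58 for Hadhb, -0.97 for Eci1 and -0.78 for Etfdh. Those added elsewhere were -2.01 for Eci3, -1.37 for Decr2, -1.83 for Acot3, -1.23 for Acot4, -1.23 for Cyp4a10 and -1.13 for Ppara. Besides Cpt1a, Ehhadh, Acaa1a, Acaa1b and Cyp4a14, the members without a call were -0.49 for Acadl, -0.53 for Eci2, -0.71 for Decr1, -0.53 for Etfa, -0.39 for Acot1, -0.31 for Acot2, -0.48 for Bdh1, -0.21 for Ppargc1a, -0.21 for Vnn1 and -0.37 for Pdk4. Counts also moved with other libraries: without chow-fed female 1, chow-fed male 2 or FPC-fed male 1 or 3, the lower calls were Echs1 and Hadh, where 4.09% to 4.71% of all genes were called. Echs1 and Hadh kept their call in 24 of 26 alternative fits, and the exceptions were the fits with marker levels as covariates.

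**Figure D3:**
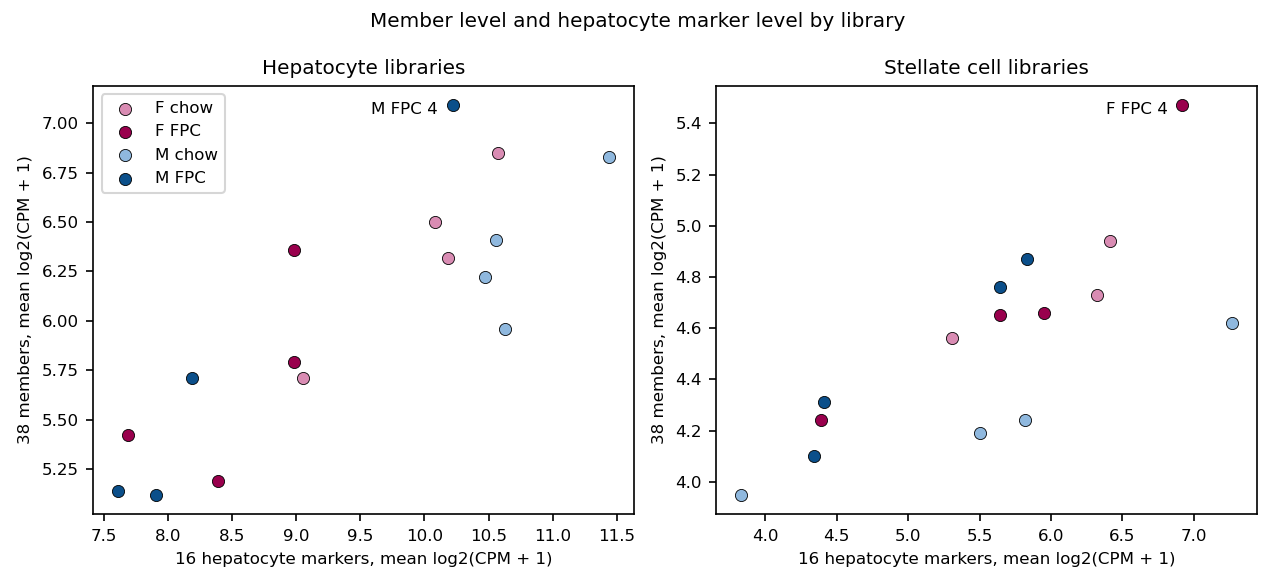
Mean log2(CPM + 1) of the 38 members against that of 16 hepatocyte markers, 1 point per library, in hepatocyte (left) and stellate cell (right) libraries. On the marker axis the FPC-fed hepatocyte libraries lie at 7.61 to 8.98, under all chow libraries, except male 4 at 10.22. On the member axis the diets overlap, with FPC-fed female 4 at 6.36 and chow-fed female 2 at 5.71, and FPC-fed female 4 is the highest stellate cell library for the members.

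Set against the hepatocyte markers, the median of the members changed sign. With the hepatocyte marker level of each library as a covariate, 0 members fell and 6 rose in the average over the sexes, where 2.3% of all genes were called. The 6 were Fgf21 (5.29 ± 0.96), Cyp4a14 (2.94 ± 0.62), Vnn1 (2.15 ± 0.39), Cyp4a10 (2.13 ± 0.31), Acaa1b (1.80 ± 0.40) and Acaa1a (1.38 ± 0.33). The median of the 38 members was 0.66 in this fit, and that of the hepatocyte markers 0.17. The members that had fallen moved to near 0 or above it: -0.12 for Echs1, -0.09 for Hadh, -0.12 for Hsd17b4, 0.17 for Cpt2, 0.42 for Etfb and 0.53 for Acaa2. In each sex taken alone, 5 members rose in females, where 1.72% of all genes were called, and 4 in males, where 1.11% were. Because the marker level itself did not overlap between the diets in either sex, the diet effect and the marker level cannot be told apart in these libraries, and the part of hepatocyte content in the lower calls was not tested further. With the Kupffer cell marker level as the covariate, 0 of 14430 genes were called, and Echs1 and Hadh had -0.91 and -1.33.

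**Figure D4:**
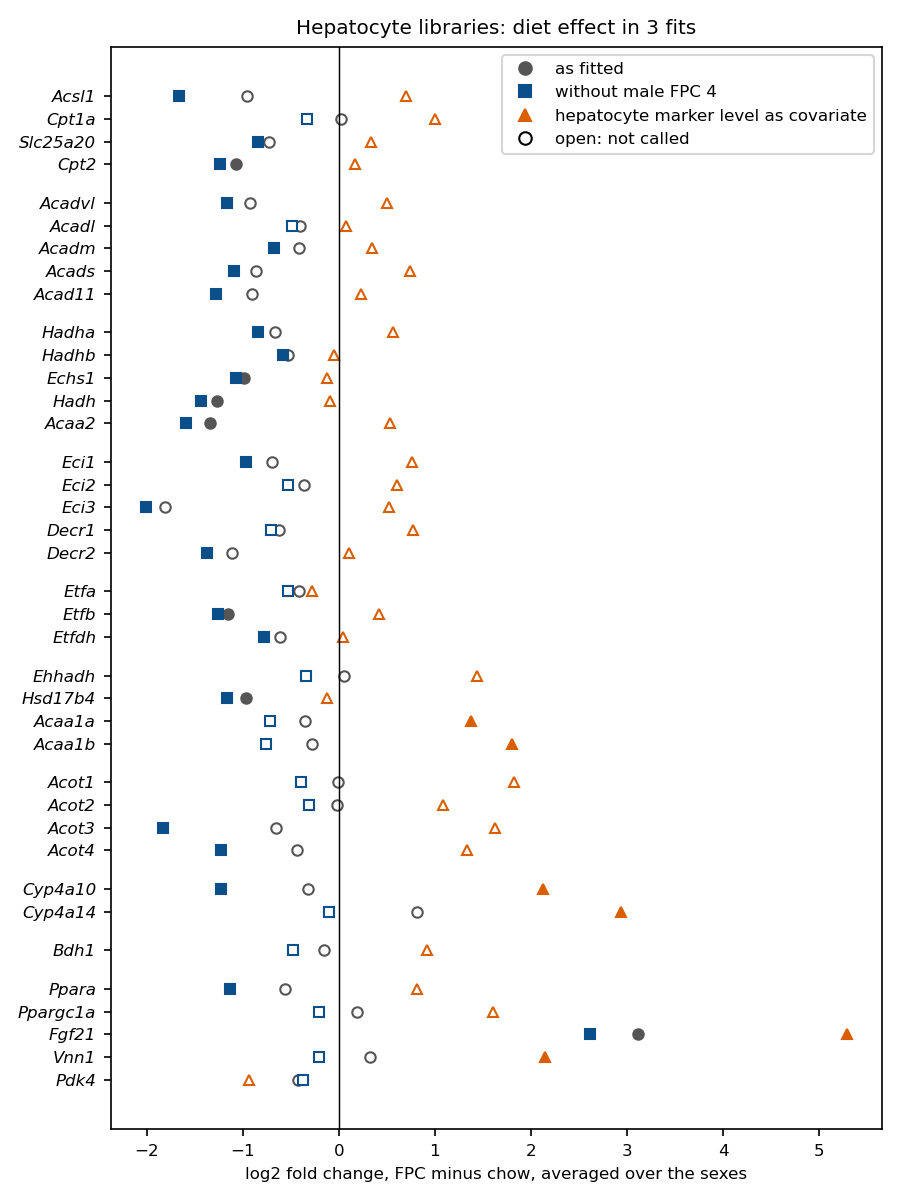
Log2 fold change of each member in hepatocytes, FPC minus chow averaged over the sexes, as fitted (circles), without FPC-fed male 4 (squares) and with the hepatocyte marker level as a covariate (triangles); filled symbols passed the test. Except for Pdk4, squares lie left of the circles and triangles right of them, and the filled triangles are Fgf21, Vnn1, Cyp4a10, Cyp4a14, Acaa1a and Acaa1b.

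Tested within each sex, few genes of any kind were called. In females 1 member, Eci3, fell, where 0.249% of all genes were called and 0.215% fell, and the median of the members was -0.51 beside 0.12 for all genes. In males 0 members were called by edgeR, where 0.437% of all genes were, with a median of -0.47 beside 0.08, while DESeq2 called 4, Echs1, Acaa2 and Etfb lower and Fgf21 higher, and 8.31% of all genes. Without FPC-fed male 4, 11 members fell in males, where 9.9% of all genes were called and 7.2% fell. Libraries did not overlap between the diets for 5 members in females, all lower (Acsl1, Acad11, Hadhb, Eci3 and Hsd17b4), beside 3.44% of all genes. In males they did not overlap for 4 lower members (Echs1, Acaa2, Decr1 and Etfb), beside 11.1% of all genes, and for Fgf21 as the 1 higher, beside 6.14%.

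Eci3 (chr13:34946614-34963810), a peroxisomal isomerase, was a female-high gene on chow. It was at 25.6, 4.89, 8.67 and 12.9 CPM in chow-fed females and 0.314, 2.05, 0.608 and 0.568 CPM in FPC-fed females, and at 0.273, 0.61, 0.447 and 0 CPM in chow-fed males and 0.466, 0.216, 0.231 and 1.85 CPM in FPC-fed males. All chow-fed females lay above every other hepatocyte library. Summed counts were 827 in chow-fed females, 66 in FPC-fed females, 12 in chow-fed males and 21 in FPC-fed males. Eci3 passed the filter on low counts through chow-fed females, so the filter and its calls rest on the group where Eci3 was high. On FPC it was 15.4-fold lower in females, with a log2 fold change of -3.95 ± 0.76 and an adjusted p of 0.0374 in edgeR, a call lost when chow-fed female 1, 3 or 4 or FPC-fed female 1, 3 or 4 was left out. With the replicate number as a block the adjusted p in edgeR was 0.0803, and with the female groups fitted alone 0.0621. Between the sexes on chow it was 36.9-fold lower in males, with -5.20 ± 0.86 and an adjusted p of 0.00564 in edgeR, and this call held without each library in turn. It was the 1 member called between the sexes on chow, where 0.43% of all genes were called and 0.132% were lower in males. On FPC 0 members were called between the sexes by edgeR, where 0.333% of all genes were, and 0 by DESeq2. Without FPC-fed male 4 edgeR called 1, Acot3, lower in males, where 0.255% of all genes were called.

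Acot3 had a like pattern at 126, 28.5, 69.1 and 86.9 CPM in chow-fed females and 6.27, 17.1, 12.7 and 32.2 CPM in FPC-fed females, and at 5.18, 3.66, 3.19 and 0.419 CPM in chow-fed males and 0.326, 1.3, 1.54 and 26.5 CPM in FPC-fed males. On chow all females lay above all males for Acot3 and Eci3 alone among the members, beside 1.9% of all genes. Acot3 had -4.68 ± 1.08 for males minus females and an adjusted p of 0.088 in edgeR, while DESeq2 called it. FPC-fed male 4 was the only male library above 10 CPM. The interaction, the diet effect in males minus that in females, was 4.28 ± 1.18 for Eci3 and 3.09 ± 1.41 for Acot3, and neither passed, with an adjusted p of 0.978 for both in edgeR. Over all genes edgeR called 0 for the interaction, 605 had an unadjusted p under 0.05, and DESeq2 called 2 genes, none of them a member. Acsl1 was the 1 member with all chow-fed males (259 to 525 CPM) above all chow-fed females (80.8 to 213 CPM), beside 2.81% of all genes, with 1.10 ± 0.59 and an adjusted p of 0.911 in edgeR.

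**Figure D5:**
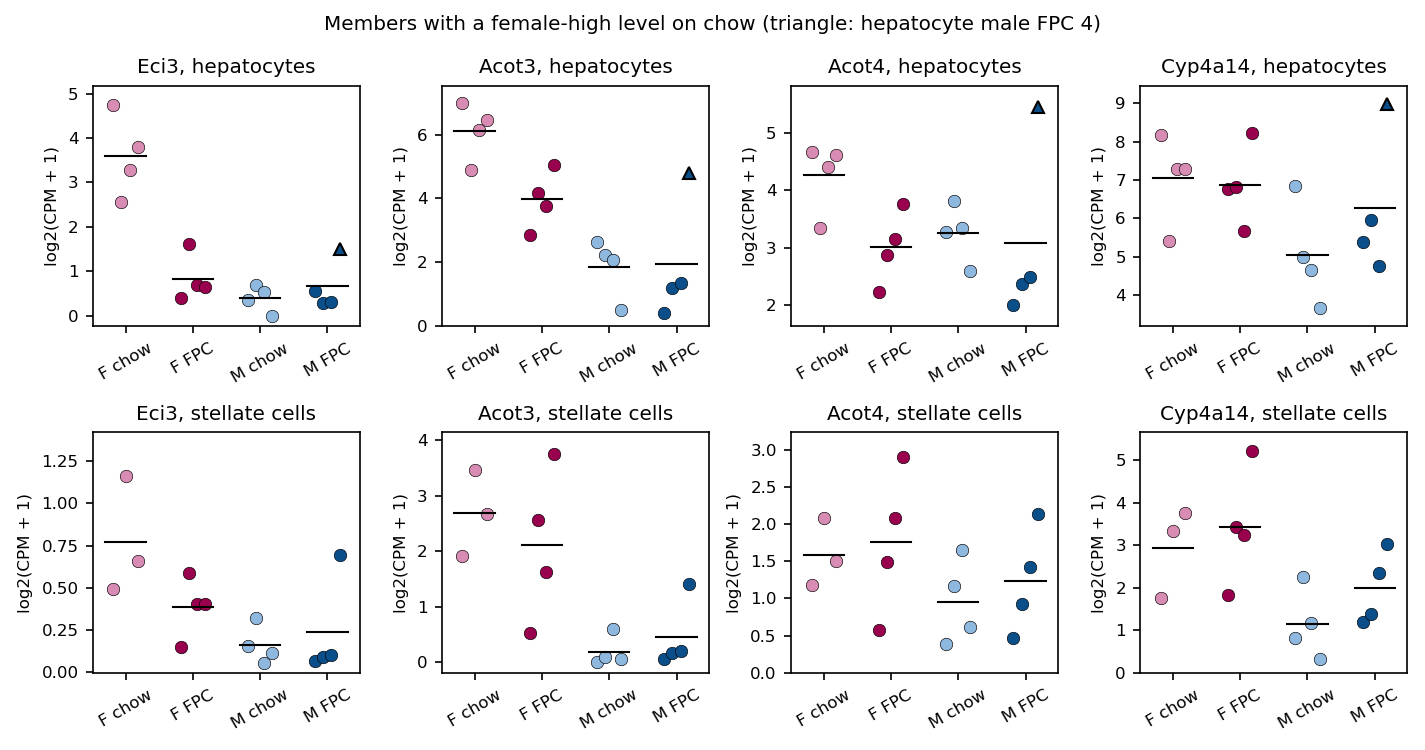
Level of Eci3, Acot3, Acot4 and Cyp4a14 in each library as log2(CPM + 1), in hepatocyte (top) and stellate cell (bottom) libraries, by sex and diet; lines are group means. All chow-fed females lie above all chow-fed males for Eci3 and Acot3 in both cell types, and in stellate cells Eci3 reaches 1.24 CPM at most.

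In stellate cell preparations no member was called for the diet by edgeR. Of the 38, 37 passed the filter on low counts and Fgf21 did not. Averaged over the sexes 0 of 15430 genes were called (0%), 1128 had an unadjusted p under 0.05, and DESeq2 called 159 genes and 0 members. The median of the 37 members was 0.09, beside 0.02 for all genes, with 31 positive and 6 negative. Within females (1555 genes at an unadjusted p under 0.05), within males (876) and for the interaction (1341), edgeR called 0 genes, and DESeq2 called 249, 56 and 47 genes. Cpt1a was at 192, 192 and 187 CPM in the 3 chow-fed females and 170, 146, 150 and 166 CPM in FPC-fed females, and at 153, 182, 144 and 123 and 151, 197, 218 and 192 CPM in chow-fed and FPC-fed males. Females on FPC lay under all on chow, for Cpt1a alone among the members and beside 2.48% of all genes, and males overlapped, with -0.27 ± 0.18 in females, 0.33 ± 0.16 in males and 0.03 ± 0.12 on average.

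The larger stellate values came from few libraries. Acaa1b was at 36.3, 86.2 and 63.8 CPM in chow-fed and 28.7, 91.6, 98.4 and 536 CPM in FPC-fed females, and at 19.4, 79.8, 36.9 and 44.6 and 37.7, 46.1, 131 and 150 CPM in males. FPC-fed female 4 was far above all others, and the log2 fold change was 1.31 ± 0.55 with an adjusted p of 0.623 in edgeR. In the same library Ehhadh was at 114 CPM, against 11.1 to 34.9 CPM elsewhere, and its hepatocyte marker level was 6.92, against 4.39 to 5.95 in the other FPC-fed females. The hepatocyte markers lay between 3.83 and 7.27 over the stellate cell libraries. The highest level, 7.27, was in chow-fed male 2, where Acaa1b was at 79.8 CPM. The part of hepatocyte markers in the member values was not tested. Ehhadh had 0.83 ± 0.39 without a call. Without FPC-fed female 4 the median of the members was 0.02, and 18 of 37 were negative.

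In the other steps the same library was often the extreme one. Ppara was at 1.62, 6.88 and 6.63 CPM in females on chow and 2.53, 12.5, 11.7 and 18.2 CPM in females on FPC, and at 0.981, 13.6, 3.71 and 5.13 CPM in males on chow and 1.44, 5.9, 10.7 and 16.1 CPM in males on FPC, with a log2 fold change of 0.84 ± 0.60. Acot1 was at 13, 9.65 and 10.4 CPM in females on chow and 4.7, 8.55, 10 and 30.1 CPM in females on FPC, and at 4.82, 5.09, 5.7 and 4.27 CPM in males on chow and 5.47, 10.2, 15.9 and 17.1 CPM in males on FPC, with 0.78 ± 0.35 and an adjusted p of 0.665 in edgeR. The omega-hydroxylase Cyp4a14 was at 2.38, 9.07 and 12.5 CPM in females on chow and 2.53, 9.86, 8.41 and 36.1 CPM in females on FPC, and at 0.757, 3.74, 1.27 and 0.246 CPM in males on chow and 1.3, 1.62, 4.1 and 7.13 CPM in males on FPC, with 1.03 ± 0.64. For these 3 the diets overlapped in both sexes, none was called, and FPC-fed female 4 was the highest of the 15 stellate cell libraries. The ketone body enzyme Bdh1 was at 10.3, 33 and 17.2 CPM in females on chow and 5.3, 25, 20.5 and 66 CPM in females on FPC, and at 8.38, 19.6, 10.7 and 15.3 CPM in males on chow and 10.3, 11, 21.8 and 24.4 CPM in males on FPC, with 0.43 ± 0.43. Echs1, which fell in hepatocytes, was at 76.3, 80.3 and 61.8 CPM in females on chow and 48.8, 49, 50.6 and 116 CPM in females on FPC, and at 34.6, 55.3, 44.2 and 39.9 CPM in males on chow and 46.1, 50.5, 83.8 and 65 CPM in males on FPC, with 0.18 ± 0.22. Decr2 was at 22.3, 29.1 and 23.7 CPM in females on chow and 22.8, 23.7, 23.5 and 62.2 CPM in females on FPC, and at 15.1, 20.9, 15.9 and 21.9 CPM in males on chow and 19.3, 16.9, 24.5 and 26.4 CPM in males on FPC, with 0.32 ± 0.23. In these 3 too FPC-fed female 4 was the highest library, and for Echs1 the other 3 FPC-fed females lay under all chow-fed females. Neutrophil markers were at 8.14, 7.92 and 7.76 in those 3 libraries, 5.79 in FPC-fed female 4 and 5.76 to 6.51 in chow-fed females. The part of neutrophil content in the member values was not tested.

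The carnitine carrier Slc25a20 was at 53.1, 57.3 and 45 CPM in females on chow and 52.2, 37, 38.8 and 62.4 CPM in females on FPC, and at 31.1, 37.1, 29.1 and 26.9 CPM in males on chow and 32.1, 42.7, 50.2 and 42.8 CPM in males on FPC, with 0.16 ± 0.15. Acadm was at 31, 47.4 and 50.9 CPM in females on chow and 51.9, 55.9, 57.4 and 41.9 CPM in females on FPC, and at 48.8, 74, 62.4 and 63.4 CPM in males on chow and 61.1, 51.6, 65.6 and 72.2 CPM in males on FPC, with 0.14 ± 0.15. Etfdh was at 42.5, 47.6 and 40.6 CPM in females on chow and 40.2, 50, 49.4 and 30.9 CPM in females on FPC, and at 38.4, 47.5, 38.6 and 45.4 CPM in males on chow and 40, 43.5, 53.7 and 48.2 CPM in males on FPC, with 0.05 ± 0.13. The diets overlapped in both sexes for all 3, and FPC-fed female 4 was the highest library for Slc25a20, the lowest FPC-fed female for Acadm and the lowest of all for Etfdh.

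None of the remaining tested members was called between the diets in stellate cells. In the mitochondrial steps the log2 fold changes were 0.01 ± 0.18 for Acsl1, 0.14 ± 0.23 for Cpt2, 0.01 ± 0.19 for Acadvl, 0.09 ± 0.13 for Acadl, 0.19 ± 0.24 for Acads and 0.06 ± 0.19 for Acad11. Further along the cycle they were 0.01 ± 0.16 for Hadha, -0.02 ± 0.12 for Hadhb, 0.03 ± 0.21 for Hadh, 0.18 ± 0.28 for Acaa2, -0.04 ± 0.18 for Etfa and 0.01 ± 0.23 for Etfb. Auxiliary enzymes had -0.13 ± 0.22 for Eci1, 0.07 ± 0.18 for Eci2, -0.28 ± 0.62 for Eci3 and 0.07 ± 0.18 for Decr1, and peroxisomal enzymes 0.20 ± 0.16 for Hsd17b4 and 0.21 ± 0.24 for Acaa1a. Thioesterases, the other omega-hydroxylase and the regulators had -0.07 ± 0.23 for Acot2, 0.68 ± 0.85 for Acot3, 0.55 ± 0.58 for Acot4, 0.22 ± 0.65 for Cyp4a10, -0.29 ± 0.54 for Ppargc1a, 0.08 ± 0.62 for Vnn1 and 0.08 ± 0.34 for Pdk4. Averaged over the sexes, mitochondrial values were thus close to 0, and the values above 0.5 in size belonged to peroxisomal, thioesterase, omega-hydroxylase and regulator genes. Opposite values of the sexes, such as those of Cpt1a, cancel in this average.

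Between the sexes, stellate cell libraries of chow-fed males had lower levels of many members than those of chow-fed females, without a call by edgeR. For 18 of the 37 members all male libraries lay under all female libraries, beside 18.6% of all genes, and Ppargc1a was the 1 with all males higher, beside 20.3%. The median was -0.51, beside -0.05 for all genes, and 0.0518% of genes were called. Slc25a20 was at 53.1, 57.3 and 45 CPM in females and 31.1, 37.1, 29.1 and 26.9 CPM in males, with -0.74 ± 0.22 and an adjusted p of 0.088 in edgeR. Etfb was at 121, 99.5 and 76.9 CPM in females and 42, 55, 46.9 and 47.6 CPM in males, with -1.05 ± 0.33 and an adjusted p of 0.0928. Males lay under females without overlap for both. DESeq2 called 7 members, Ppargc1a higher and the others lower in males, and 15.2% of all genes. An edgeR fit of the chow groups alone called 9 of 36 members, all lower in males, and 19.6% of all genes, 10.6% lower. Without chow-fed female 4, edgeR called 6 members (5 lower, with Ppargc1a higher) and 19.1% of all genes. Kupffer cell markers moved in the same libraries, with 12 of 12 negative and a median of -1.1 between the sexes, while hepatocyte markers had a median of 0.1. The part of macrophage content in these values was not tested. On FPC 0 members were called between the sexes by edgeR, where 0.0583% of genes were, 1546 had an unadjusted p under 0.05 and DESeq2 called 142 genes.

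Of 62 further genes of the pathway, 60 were tested in hepatocytes, and averaged over the sexes 12 fell and 1 rose, beside 6.65% lower and 5.47% higher over all genes. The list was set up with the members and covers uptake, carnitine, peroxisomes, branched and odd chains, ketone bodies and PPAR partners. Hacl1 and Pecr, peroxisomal enzymes of alpha-oxidation and of chain reduction, fell the most among the called, at -2.14 ± 0.31 and -2.14 ± 0.33, 4.39-fold and 4.4-fold lower, with adjusted p of 0.00158 and 0.00218 in edgeR. Phyh, which starts alpha-oxidation of phytanic acid, had -1.09 ± 0.25, and Amacr, a racemase for branched chains, -1.18 ± 0.28. Pcca, a subunit of propionyl-CoA carboxylase, had -0.96 ± 0.22, and Bbox1, the last enzyme of carnitine synthesis, -1.09 ± 0.27. Adjusted p of these 4 ran from 0.0149 to 0.0212. The 1 that rose was Slc27a1, a fatty acid transport protein named here after its value was seen, at 0.92 ± 0.24 with an adjusted p of 0.0236 in edgeR. By group, 5 of 15 tested peroxisomal genes and 4 of 6 genes of branched and odd chains fell. With the hepatocyte marker covariate 0 of the 60 fell and 8 rose, where 2.3% of all genes were called, and Hacl1 and Pecr stood at -0.95 and -0.67.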

How the data were processed

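Bulk RNA from 16 preparations of hepatocytes and 15 of hepatic stellate cells was amplified as cDNA with NuGEN Ovation kits and sequenced, per the labels' protocols. The authors deposited raw counts per gene symbol, made with STAR, featureCounts and mm10, per the submitters' processing notes. No source used here gives versions, annotation, strand setting or how reads with several matches were treated. Groups came from the labels.

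The cell types were fitted separately with edgeR 4.0.16 (R 4.3.3): filterByExpr, TMM scaling and a quasi-likelihood model of 4 groups (sex by diet). Contrasts were the diet effect in each sex, averaged over the sexes and their difference, and the sex difference on each diet, tested on both sides and Benjamini-Hochberg adjusted over all genes tested (threshold 0.05). Values after ± are standard errors. A group's libraries do not overlap where all CPM of one lie above all of the other. Positions and lengths came from GENCODE M21 (GRCm38), which held 24366 of the 25239 symbols. The scripts were tested on simulated counts, and every pair of replicates differed by more than sampling noise.

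Members and lists were chosen with earlier results of these data known. Values by library are given, in each cell type, for members called for diet (up to 12 by p), for the member with the smallest p of the averaged effect in each step and for Cpt1a and Ppara, and other members by range. Genes outside the list are the 6 with the smallest p among those called. Slc27a1, and Etfb and Ehhadh in stellate cells, were named after their values were seen. Same-numbered libraries deviated together in 1 pair of groups, FPC-fed female and male hepatocytes (correlations 0.279 to 0.649 over 4 numbers), a hint from the data, not the design. Between these groups, the sexes on FPC, a block changed no call of a member. In diet effects it moved calls of Fgf21, Decr2 and Eci3, given beside them. DESeq2 1.42.0, its size factors, no filter, the compared groups alone, a replicate block, GC and length offsets, marker covariates, removal of Rn45s, Lars2 and Mir6236 and leaving out each library were tried. Voom with quality weights (limma 3.58.1) was added after seeing the data.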

Additional observations from a re-analysis of the deposited data

Results flagged for a closer look

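Of 100 sets of 4 libraries examined for the named members, 2 held a library far from the other 3, and chance alone marks about 1 in 20. Both are stellate cells of FPC-fed female 4. Echs1 was at 116 CPM there, against 48.8 to 50.6 CPM in the other 3 FPC-fed females. Decr2 was at 62.2 CPM, against 22.8 to 23.7 CPM. The same library had the highest level of the members over all stellate cell libraries, 5.47. Its hepatocyte marker level was 6.92, where chow-fed male 2 was the highest at 7.27. Its neutrophil marker level was 5.79, against 7.76 to 8.14 in the other 3 FPC-fed females.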

How the results depend on the processing

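Counts of members called moved with the test and with single libraries. In hepatocytes, averaged over the sexes, 7 members were called. The count was 13 with DESeq2, 26 with voom and 0 with the Kupffer cell covariate, and 2 to 23 when 1 library was left out. In females (1 called) it was 0 with the groups fitted alone, with the replicate block, with the block and GC and length offsets and with the Kupffer cell covariate, 5 with the hepatocyte covariate, and 0 to 1 when 1 library was left out. In males (0 called) it was 4 with DESeq2 and with the hepatocyte covariate, 29 with voom and 0 to 11 when 1 library was left out. Between the sexes on chow (1 called) it was 2 with DESeq2 or the groups alone, 3 and 0 with the hepatocyte and Kupffer covariates and 4 with voom. On FPC (0 called) it was 1 with voom and 0 to 1 when 1 library was left out. In stellate cells voom called 8 members in females, 2 in males, 1 on average, 16 for the interaction and 21 between the sexes on chow. DESeq2 called 7 and the groups alone 9 in the last comparison, and leaving out 1 library gave 0 to 6. The cause of these differences was not tested.

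Signs turned as follows. With the hepatocyte covariate the hepatocyte log2 fold changes were 0.17 for Cpt2, 0.53 for Acaa2, 0.42 for Etfb, 0.52 for Eci3, 0.81 for Ppara, 0.50 for Acadvl, 0.11 for Decr2, 1.63 for Acot3 and 0.92 for Bdh1. With the Kupffer covariate Bdh1 was 0.05. Cpt1a in hepatocytes was -0.04 with the replicate block, -0.03 with the offsets, -0.07 with both, -0.45 with voom and -0.33 to 0.16 when 1 library was left out (negative for 4 of 16), and Cyp4a14 was -0.10 to 1.31, negative without FPC-fed male 4. In stellate cells Cpt1a was -0.01 with the offsets, with or without the block, and -0.01 to 0.08 when 1 library was left out, Slc25a20 was -0.02 and Echs1 -0.04 with voom, and Echs1 was -0.03 to 0.25 when 1 library was left out, negative without FPC-fed female 4.

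Over all genes the average diet effect in hepatocytes had 1748 calls, against 3400 with DESeq2, 2707 with the offsets, 332 and 0 with the hepatocyte and Kupffer covariates and 6126 with voom. The lower share was 54.9% and 42.4% with DESeq2, whose median over all genes was 0.21 instead of 0.09. The replicate block gave 1439 genes, lost Fgf21 and added Decr2. Blocks for numbers that share no source are given only as fits. In females 36 genes became 626 (DESeq2), 58 (no filter), 0 (groups alone), 8 (block), 135 (offsets), 91 (both), 248 and 0 (covariates) and 284 (voom). In males 63 became 40 (DESeq2 size factors), 1262, 39 and 131 (further fits), 116 (offsets), 129 (both), 160 and 2 (covariates) and 7340 (voom). Sex on chow had 62 and 154 (DESeq2), 131 (groups alone), 16 (Kupffer) and 200 (voom). Sex on FPC had 48 and 176 and 9 (further fits), 29 (both), 76 (hepatocyte covariate) and 29 (voom). In stellate cells the average effect had 0 and 159, 6 (offsets), 17 (hepatocyte covariate) and 5389 (voom), females 0 and 249 or 6996, males 0 and 56, 57, 8 or 746, the interaction 0 and 47 or 6036. Sex on chow had 8 and 2379, 2962, 17, 13, 45 or 6873, and sex on FPC 9 and 142, 15 or 519. In each of these stellate lists DESeq2 comes first and voom last, and unlabelled values between belong to further fits.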
